A study of Homo sapiens with 8 samples.

Results

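The genes described here make cholesterol and fatty acids in human cells, or control the genes that do. They were chosen by name as 28 genes, and 27 of them were found by gene identifier among the 57820 genes of the count table. The remaining gene, ACACA, which encodes the acetyl-CoA carboxylase of fatty acid synthesis, could not be matched by identifier and was not analysed here. Of the 27 genes, 21 had enough counts to be tested, in a table of which 9309 genes were tested. The other 6 (TM7SF2, MSMO1, HSD17B7, SC5D, INSIG2 and STARD4) are given by their counts.

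The libraries came from J82, a human bladder cancer line in long use, grown in DMEM medium with 10% fetal bovine serum. Cells were sorted by FACS into a side population (SP), the fraction that retains little of a DNA-binding dye, and the non-side population (NSP), and 4 libraries of each were counted. No drug, genotype or time point separates the groups, and both come from the same cell line. The labels number the libraries 1 to 4 in each group but do not say whether a number stands for a culture, a sort or a day, so the p-values measure the spread between these libraries, which may be technical.

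Cholesterol is built from acetyl-CoA in the mevalonate pathway, which leads to farnesyl diphosphate and, after its dimerization to squalene, through a series of sterol intermediates to cholesterol. Most enzymes of the pathway are transcribed under the SREBP factors, membrane proteins that SCAP escorts from the endoplasmic reticulum to the Golgi for cleavage when sterols are low. INSIG proteins hold SCAP back when sterols are plentiful, and INSIG1 is itself an SREBP target gene. Fatty acid synthesis starts from the same acetyl-CoA and is driven mainly by the SREBP-1 form.

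The promoters of the 3 regulators INSIG1, SREBF1 and SREBF2 are shown because SREBP binds its target genes near their starts and these genes sit at the top of the loop. Each is the 250 bases before the gene start in RefSeq (GRCh38.p14), written 5′ to 3′ on the gene's strand, at chr7:155297628-155297877 (plus strand) for INSIG1, chr22:41832855-41833104 (plus strand) for SREBF2 and chr17:17836987-17837236 (minus strand) for SREBF1. Capitals mark matches on either strand to a sterol regulatory element (TCACNCCAC), a CCAAT box (CCAAT) and a GC box (GGGCGG). They also mark matches to the letters TCACNTGA, a palindrome only when N is G.
INSIG1: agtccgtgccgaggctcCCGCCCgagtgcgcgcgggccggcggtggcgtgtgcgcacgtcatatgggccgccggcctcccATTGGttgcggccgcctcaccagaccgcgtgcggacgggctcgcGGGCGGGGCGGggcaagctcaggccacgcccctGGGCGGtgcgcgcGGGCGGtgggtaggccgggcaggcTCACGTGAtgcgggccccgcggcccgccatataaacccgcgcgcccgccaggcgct
SREBF2: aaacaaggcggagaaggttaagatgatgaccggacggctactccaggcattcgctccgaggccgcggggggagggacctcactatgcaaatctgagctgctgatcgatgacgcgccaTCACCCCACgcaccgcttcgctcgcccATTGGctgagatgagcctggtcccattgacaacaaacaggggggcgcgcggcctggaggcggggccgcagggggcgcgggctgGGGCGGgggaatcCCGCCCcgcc
SREBF1: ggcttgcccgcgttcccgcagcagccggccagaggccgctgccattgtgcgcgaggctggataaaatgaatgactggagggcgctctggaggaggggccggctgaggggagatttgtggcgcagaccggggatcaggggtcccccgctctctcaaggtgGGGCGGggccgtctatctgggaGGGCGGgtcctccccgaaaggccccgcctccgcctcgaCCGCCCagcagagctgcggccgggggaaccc
INSIG1 held the palindromic form TCACGTGA, from 56 to 49 bases before the start, and a CCAAT box. SREBF2 held TCACCCCAC, from 133 to 125 bases before the start, and SREBF1 held GC boxes and none of the other letters. Windows were given for 24 of the 28 genes (33 windows, some genes having several starts). The letters TCACNCCAC were found in 1 of these 33 windows and in 0.883% of all 35116 windows, and TCACNTGA in 2 (INSIG1 and EBP) and in 3.20%. CCAAT was in 23 of the 33 windows (69.7%) and in 32.0% of all windows, and GGGCGG in 30 (90.9%) and in 42.6%. A match describes the letters and does not show a bound factor.

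The libraries held 1431823 to 1697218 counts in SP cells and 1489033 to 2073526 in NSP cells. Mitochondrially encoded genes took 3.46% to 7.57% of the counts in SP libraries and 1.65% to 4.01% in NSP libraries. Of 14 urothelial markers, KRT7, KRT8, KRT18, KRT19 and UPK2 had enough counts to be tested, UPK3A and KRT20 had no counts, and the summed level was 3430 to 4783 CPM in SP and 4676 to 6414 CPM in NSP libraries. The 6 mesenchymal markers summed to 325 to 502 CPM in SP and 548 to 917 CPM in NSP libraries. KRT8 made up most of the urothelial sum, and VIM most of the mesenchymal sum. Of 6 blood or vessel markers, PTPRC, CD3E and HBB had no counts and the sum was 42.8 to 98.0 CPM in SP and 21.05 to 58.8 CPM in NSP libraries, most of it from CD14. KRT7 (log2 fold change -1.35) and FN1 (-1.25) were called lower in SP cells. With the replicate number as a block VIM (-0.75) and SPARC (-0.62) were also called lower and CD14 (1.01) higher. The other tested markers were not called with or without the block. Without it, ZEB2 (0.52) and UPK2 (0.22) were positive. ZEB1 (-0.46), CDH2 (-0.03), KRT8 (-0.29), KRT18 (-0.11), KRT19 (-0.24) and CD68 (-0.18) were negative. The part of these markers in the results for the lipid genes was not tested. The strand setting of the counting is not given in the sources used here. From which strand the counts assigned to a gene came was not tested. Each value below is the count assigned to that gene and need not measure its transcript. Among 595 long noncoding RNAs (lncRNAs) that overlap the exons of an opposite-strand coding gene, 525 (88.2%) exceeded that gene in counts per kb.

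The synthesis genes and their regulators did not pass the test between SP and NSP cells. With edgeR's quasi-likelihood test and Benjamini-Hochberg adjustment, calls required an adjusted p below 0.05 together with a change of more than 1.3-fold, and 0 of the 21 tested genes were called. The background is 3.66% of the 9309 tested genes. At an unadjusted p under 0.05 there was 1 (INSIG1), beside 16.4% of all tested genes, and DESeq2 and limma voom also called 0 (background 3.33% and 4.20%). The log2 fold changes (SP over NSP) were positive for 12 genes and negative for 9, from -0.54 for CYP51A1 to 0.59 for INSIG1, with a median of 0.05 beside 0.01 over all tested genes. The median was -0.083 without SP library 3, -0.019 without NSP library 4 and -0.018 with the counts of both strands summed, so it has no stable sign. Their standard errors had a median of 0.20 beside 0.25 over all tested genes. The 95% interval of the fold change lay inside 2-fold in either direction for 18 of the 21 genes and inside 1.5-fold for 11, but inside 1.3-fold for only 2, so for the other 19 the interval did not exclude a change of the size of the calling threshold. These are bulk samples, in which fewer cells of a kind and less RNA per cell cannot be told apart.

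**Figure D1:**
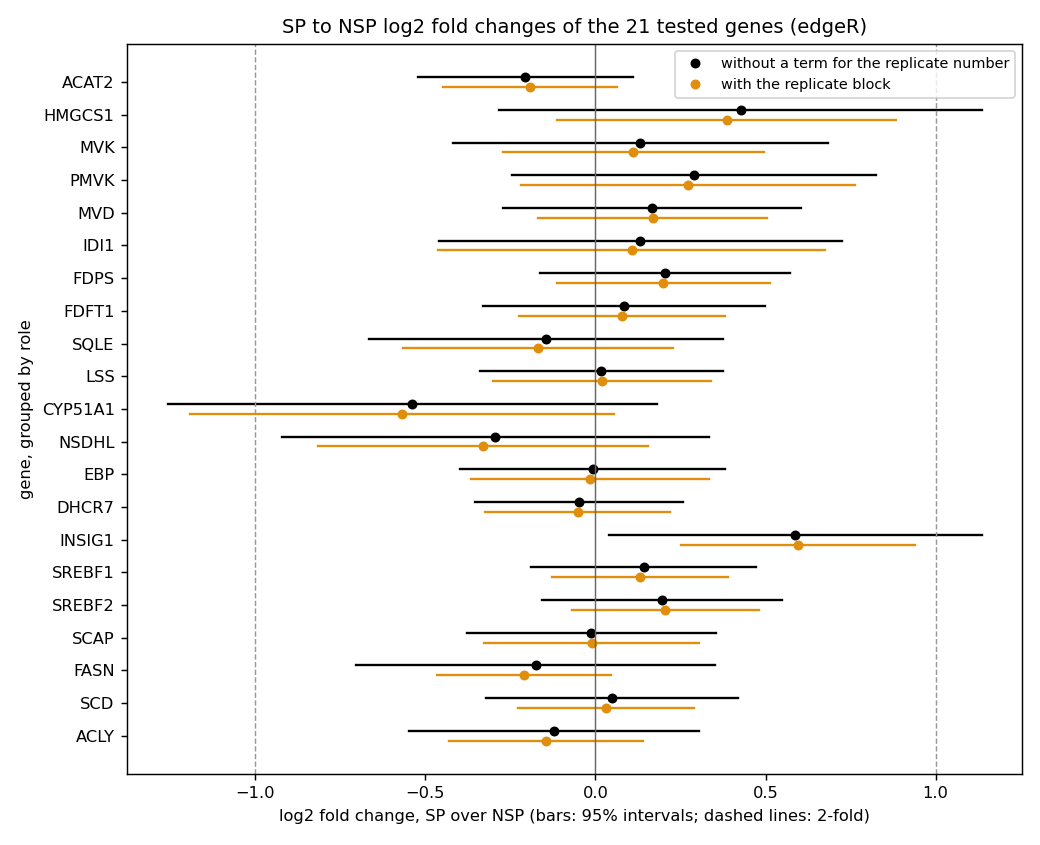
Log2 fold change (SP over NSP) of the 21 tested genes, ordered by role, from edgeR without (black) and with (orange) the replicate block, with bars for the 95% intervals and dashed lines at a 2-fold change. Without the block the values run from -0.54 (CYP51A1) to 0.59 (INSIG1), and of the 21 genes only INSIG1 has intervals that lie to the right of 0.

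The enzymes from acetyl-CoA to farnesyl diphosphate all had enough counts to be tested. Of these 7 genes, 6 had positive log2 fold changes and 1 a negative value, with a median of 0.17, and none was called. ACAT2 (ENSG00000120437.7; chromosome 6 of GRCh37, 160183077 to 160200144, plus strand), the cytosolic thiolase that joins acetyl-CoA units, was the gene with the most CPM per kb of exon in the list. It had 367, 363, 369 and 387 CPM in SP libraries 1 to 4 and 430, 351, 526 and 408 CPM in NSP libraries 1 to 4. The NSP libraries spanned the wider range and held the SP values within it. The means were 372 ± 10.6 and 429 ± 72.9 CPM (SD, n = 4 each), a log2 fold change of -0.21 (standard error 0.15, adjusted p = 0.537 in edgeR).

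HMGCS1 (ENSG00000112972.10; chromosome 5, 43287572 to 43313614, minus strand), the synthase that makes HMG-CoA, had 20.9, 10.1, 27.6 and 14.7 CPM in SP libraries 1 to 4 and 10.6, 10.4, 22.3 and 12.4 CPM in NSP libraries 1 to 4. The library numbered 3 was highest in both groups, and the groups overlapped. On the log2 scale SP exceeded NSP by 0.43 (standard error 0.33, 95% interval -0.28 to 1.13, adjusted p = 0.577 in edgeR). It was 0.14 without SP library 3 and 0.74 without NSP library 3. The estimate rests on few reads, 15 to 51 counts in the SP and 18 to 35 in the NSP libraries.

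MVK, the kinase that phosphorylates mevalonate, had 22.3, 34.9, 47.6 and 29.4 CPM in SP libraries and 21.3, 33.1, 43.4 and 26.3 CPM in NSP libraries. Libraries with the same number were close to each other and those with different numbers lay apart, so that SP was above NSP in 4 of 4 pairs by a small margin (log2 fold change 0.13, standard error 0.26). In all tested genes SP was above NSP in all 4 pairs for 14.9%. PMVK, the kinase of the next step, had 17.6 ± 3.74 CPM in SP and 14.6 ± 2.63 CPM in NSP cells. MVD, the decarboxylase that yields isopentenyl diphosphate, had 51.4 ± 10.2 and 46.1 ± 10.3 CPM. IDI1, the isomerase of that product, had 11.9 ± 2.9 and 10.9 ± 1.89 CPM, and FDPS, which condenses the isoprenoid units to farnesyl diphosphate, had 66.1 ± 8.63 and 57.4 ± 9.1 CPM. The groups of each of these genes overlapped, and their log2 fold changes of 0.13 to 0.29 were smaller than or close to the standard errors of 0.17 to 0.28.

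Among the enzymes from squalene to cholesterol, 7 of 11 were tested, 2 with positive and 5 with negative log2 fold changes (median -0.05), and none was called. FDFT1, squalene synthase, had 66.3, 66.4, 99.6 and 69.9 CPM in SP libraries 1 to 4 and 61.7, 77.0, 91.2 and 56.0 CPM in NSP libraries 1 to 4. The library numbered 3 was again the highest in each group, and the means of 75.5 ± 16.1 and 71.5 ± 15.9 CPM differed by less than the spread. SQLE, squalene epoxidase, had 28.7 ± 8.73 and 32.0 ± 7.57 CPM, and LSS, the cyclase that makes lanosterol, had 55.5 ± 6.34 and 54.8 ± 6.4 CPM.

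CYP51A1 (ENSG00000001630.11; chromosome 7 of GRCh37, 91714301 to 91764117, minus strand), the lanosterol demethylase, had the most negative value of the list with all libraries in the fit. It had 7.93, 5.36, 10.8 and 6.62 CPM in SP libraries 1 to 4 and 11.2, 8.40, 17.9 and 8.30 CPM in NSP libraries 1 to 4. Each SP library was below the NSP library of its number, while the groups overlapped. The log2 fold change was -0.54 (standard error 0.34, 95% interval -1.26 to 0.18, adjusted p = 0.469 in edgeR), with 8 to 20 counts in the SP and 12 to 28 in the NSP libraries. With the replicate number as a block it was -0.57 (adjusted p = 0.259). Without the block it was -0.77 without SP library 3 and -0.26 without NSP library 3.

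The later sterol enzymes showed small differences. NSDHL, a sterol dehydrogenase of the demethylation steps, had 15.5 ± 6.18 CPM in SP and 19.1 ± 4.53 CPM in NSP cells, and EBP, the sterol isomerase, had 42.3 ± 6.85 and 42.5 ± 4.93 CPM. DHCR7, the reductase of the final step in one branch, had 142 ± 16.8 CPM in SP and 147 ± 6.13 CPM in NSP cells. Its log2 fold change of -0.05 had the smallest standard error of the list, 0.14, and an interval from -0.35 to 0.26.

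TM7SF2 (ENSG00000149809.10; chromosome 11, 64879317 to 64883856, plus strand), a sterol reductase, was the only gene of the 27 whose groups did not overlap, and it was too low for the test. Of the 21 tested genes of the list, 0 had groups without overlap, beside 9.75% of all tested genes. Its counts were 9, 21, 22 and 9 in SP libraries 1 to 4 and 7, 7, 8 and 1 in NSP libraries 1 to 4, or 9.77 ± 3.82 and 3.24 ± 1.85 CPM (SD, n = 4 each). Every SP library was above every NSP library, by 1 count at the closest before scaling. Without a filter on low counts the log2 fold change was 1.54 (adjusted p = 0.0170 in edgeR, a call, beside 1.15% of the 26361 genes then tested that were called higher), while DESeq2 gave 1.56 and no call (adjusted p = 0.0942). The remaining 3 enzymes had too few counts for a comparison. MSMO1, the sterol methyl oxidase, had 5 to 9 counts per SP and 6 to 13 per NSP library. HSD17B7, the 3-ketosteroid reductase, had 1 to 5 and 0 to 2, and SC5D, the lathosterol desaturase, had 0 to 3 and 2 to 3.

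**Figure D2:**
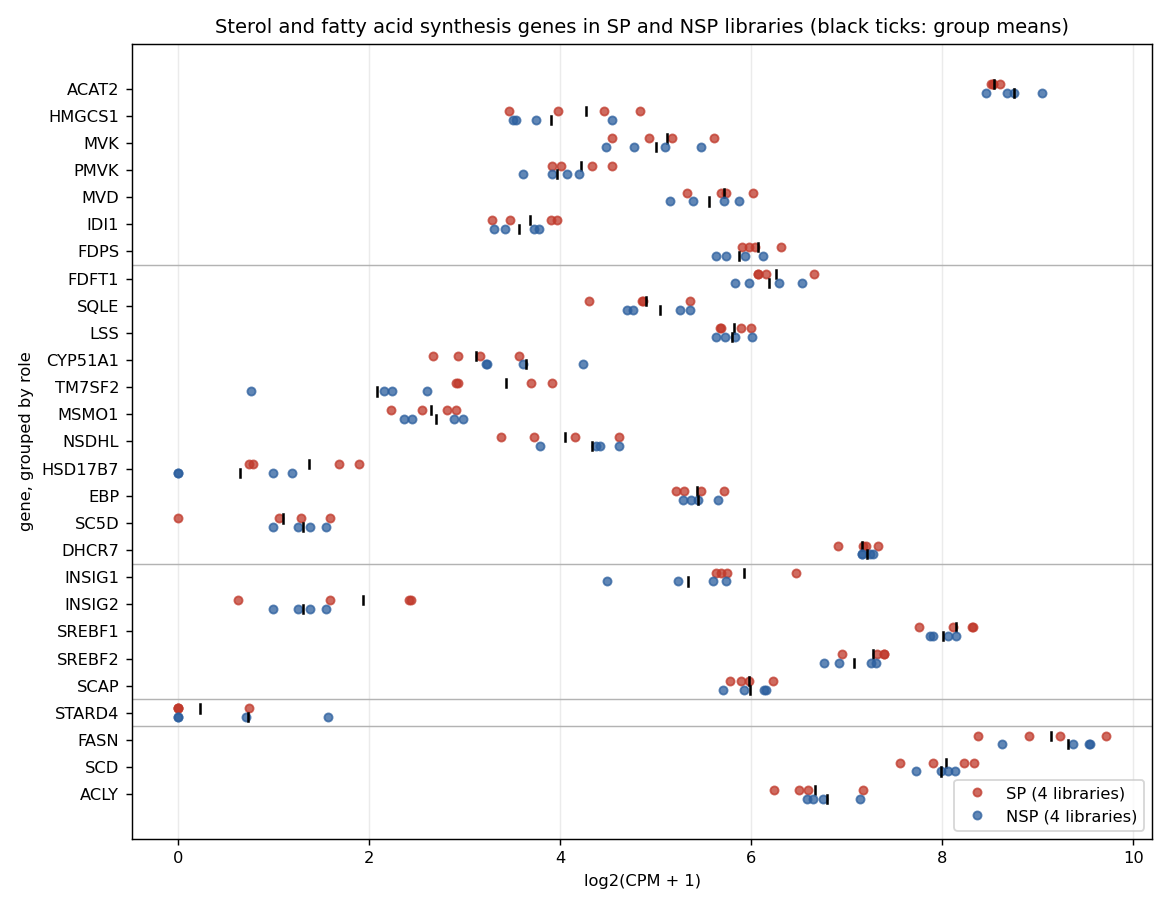
CPM per library (log2 of CPM + 1) for the 27 genes found in the table, with SP libraries as red and NSP libraries as blue points and black ticks at the group means. The ranges of the SP and NSP points overlap for 26 of the 27 genes, and TM7SF2, with 6.48 to 14.1 CPM in SP and 0.691 to 5.10 CPM in NSP libraries, is the exception.

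Of the genes that control SREBP, 4 of 5 were tested, 3 with positive values and 1 with a negative value. INSIG1 (ENSG00000186480.8; chromosome 7 of GRCh37, 155089486 to 155101945, plus strand), which retains SCAP, had 87.2, 50.3, 52.5 and 48.6 CPM in SP libraries 1 to 4 and 47.3, 36.5, 52.3 and 21.4 CPM in NSP libraries 1 to 4. SP library 1 and NSP library 4 stood apart at the high and the low end, and 2 SP libraries lay below the highest NSP library. The means were 59.6 ± 18.4 and 39.4 ± 13.7 CPM, and the log2 fold change was 0.59 (standard error 0.26, 95% interval 0.04 to 1.14, unadjusted p = 0.0370, adjusted p = 0.263 in edgeR). It was 0.35 without SP library 1 and 0.39 without NSP library 4. With the replicate number as a block, the estimate was again 0.59 with a standard error of 0.17 and an interval of 0.25 to 0.94, and INSIG1 was called (adjusted p = 0.0099 in edgeR). INSIG1 was the 1 of the 21 genes that the block called, beside 12.9% of all tested genes in either direction and 5.89% higher in SP. With both strands summed as well as the block, 2 were called higher, INSIG1 and STARD4, beside 6.26%, the counts of STARD4 then being nearly all those of STARD4-AS1. SP was above NSP in 4 of 4 pairs, but at number 3 only by 52.5 against 52.3 CPM. The block called INSIG1 no longer without the libraries numbered 1 (log2 fold change 0.48, adjusted p = 0.149) or without those numbered 4 (0.45, adjusted p = 0.157). The exons of INSIG1 meet no annotated exon of an opposite-strand gene, which does not show from which strand its counts came.

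SREBF2 (ENSG00000198911.7; chromosome 22, 42229109 to 42303310, plus strand), which encodes SREBP-2, had 159, 166, 167 and 123 CPM in SP and 152, 157, 108 and 120 CPM in NSP libraries 1 to 4. SP was above NSP in 4 of 4 pairs, and the largest gap was at number 3. SP exceeded NSP by 0.20 on the log2 scale (standard error 0.17, adjusted p = 0.615 in edgeR). SREBF1 (ENSG00000072310.12; chromosome 17, 17713713 to 17740316, minus strand), which encodes SREBP-1, had 319, 275, 316 and 215 CPM in SP and 234, 282, 266 and 239 CPM in NSP libraries, with SP higher in 2 of 4 pairs and a log2 fold change of 0.14 (standard error 0.16). SCAP had 61.9 ± 8.54 and 62.5 ± 9.0 CPM. INSIG2, the paralog of INSIG1, had 1 to 6 counts in the SP and 2 to 3 in the NSP libraries, and STARD4, a carrier of cholesterol between membranes, had 6 counts in all 8 libraries together.

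For fatty acid synthesis, 3 genes were measured and none was called. FASN (ENSG00000169710.6; chromosome 17, 80036214 to 80056170, minus strand), fatty acid synthase, had 599, 477, 838 and 331 CPM in SP and 747, 659, 739 and 393 CPM in NSP libraries 1 to 4. The libraries numbered 4 were the lowest in both groups, and within the SP libraries the values spanned a wider range than the difference between the group means of 561 ± 215 and 634 ± 166 CPM. The log2 fold change was -0.18 (standard error 0.25, 95% interval -0.70 to 0.35, adjusted p = 0.795 in edgeR). SCD, the desaturase that makes oleate, had 262 ± 60.7 CPM in SP and 252 ± 30.0 CPM in NSP cells. ACLY, which supplies cytosolic acetyl-CoA from citrate, had 100.5 ± 29.7 and 110 ± 20.4 CPM, with its highest value at number 3 in each group.

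Levels between genes were compared as CPM per kb of exon, averaged over both groups. The exon lengths came from a different GENCODE release than the counts. ACAT2 was highest at 152, ahead of FASN at 64.1, SCD at 49.0 and SREBF1 at 32.6. SREBF2 stood at 17.9 and FDPS at 16.6, neighbours in the order, and INSIG1 at 13.6. The lowest of the tested genes were IDI1 at 2.65, HMGCS1 at 2.43 and CYP51A1 at 2.29 CPM per kb, and of the genes not tested STARD4 was lowest at 0.0722. On the other strand, ENSG00000261604 and IDI2-AS1 had 117 and 12.7 times the counts per kb of HMGCS1 and IDI1. TCP1, which meets 17.2% of the exon length of ACAT2, had 0.849 times the counts per kb of ACAT2. RAI1 had 0.156 times those of SREBF1, and RUSC1-AS1 33.5 times those of FDPS. FASN and SCD meet no annotated exon on the other strand. The part of opposite-strand genes in these levels was not tested.

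The values varied more between replicate numbers than between SP and NSP cells. For all 21 tested genes the range of log2(CPM + 1) over the 4 numbers, averaged over SP and NSP, was larger than the difference between the group means, which held for 82.3% of all tested genes. A range over 4 values is expected to exceed a single difference, so the share over all genes is the comparison. The median range was 0.59 for these genes and 0.54 for all tested genes, and the median group difference was 0.16 and 0.23. By number, 14 of the 21 genes were highest at number 3 (26.0% of all tested genes) and 0 were lowest there (28.9%), while 11 were lowest at number 4 (25.1%).

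Within SP cells alone, SP library 3 was the highest of the 4 for 15 of the 21 genes (71.4%, beside 26.0% of all tested genes). Within NSP cells alone, NSP library 3 was the highest for 11 (52.4%, beside 27.98%). Measured from each gene's mean over the 8 libraries, 19 of the 21 genes lay above it in SP library 3 and 15 in NSP library 3, with median deviations of 0.28 and 0.18 in log2(CPM + 1), against 4 genes and a median of -0.19 in NSP library 4. The counts were the same with DESeq2 size factors (15 and 11), and with plain library totals they were 18 and 11, beside 39.2% and 25.8% of all tested genes. For the 50 tested related lipid genes given last, 14 were highest in SP library 3 and 14 in NSP library 3. These shares were looked at after the values were seen and are given without a test, and the labels do not say what a number stands for. The libraries numbered 4 had the highest mitochondrial share of their group, 7.57% and 4.01%, and SP library 3 had the largest scaling factor of the 8 libraries (1.11), and the part of either was not tested.

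**Figure D3:**
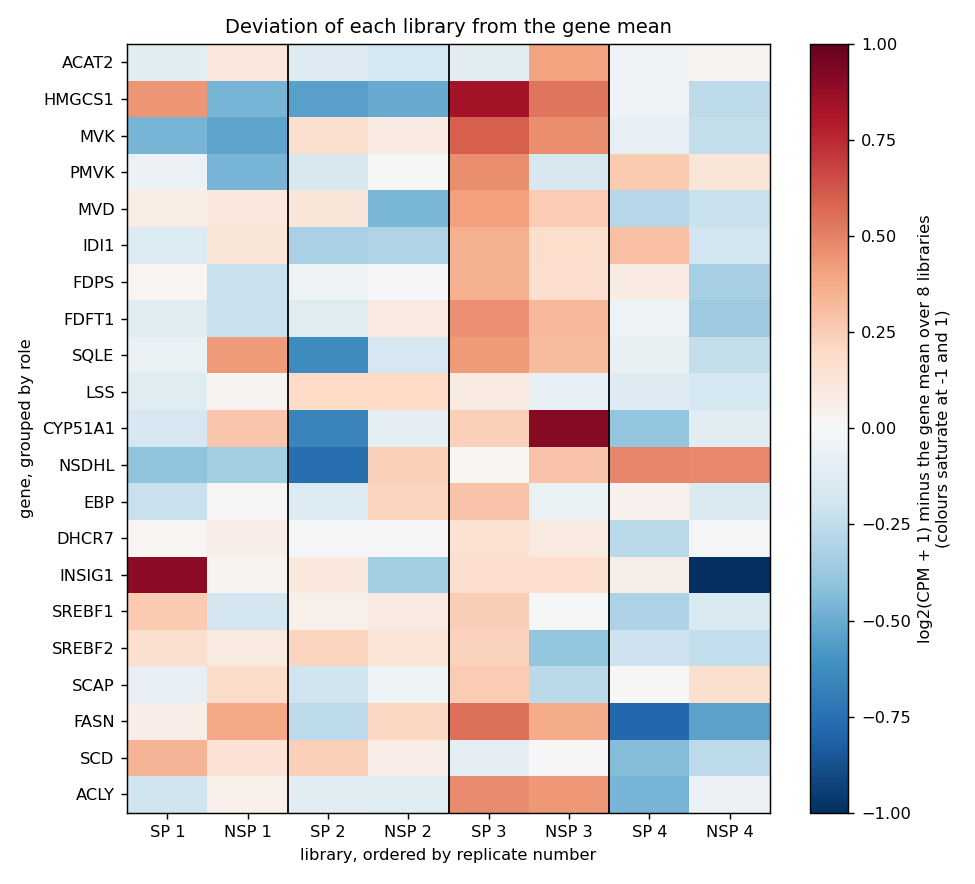
Heat map of the 21 tested genes (vertical axis) in the 8 libraries, ordered by replicate number (horizontal axis), in which the colour gives log2(CPM + 1) minus the gene's mean over the 8 libraries, red above and blue below. The median over the genes is 0.28 in SP library 3 and 0.18 in NSP library 3, and it is -0.19 in NSP library 4.

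**Figure D4:**
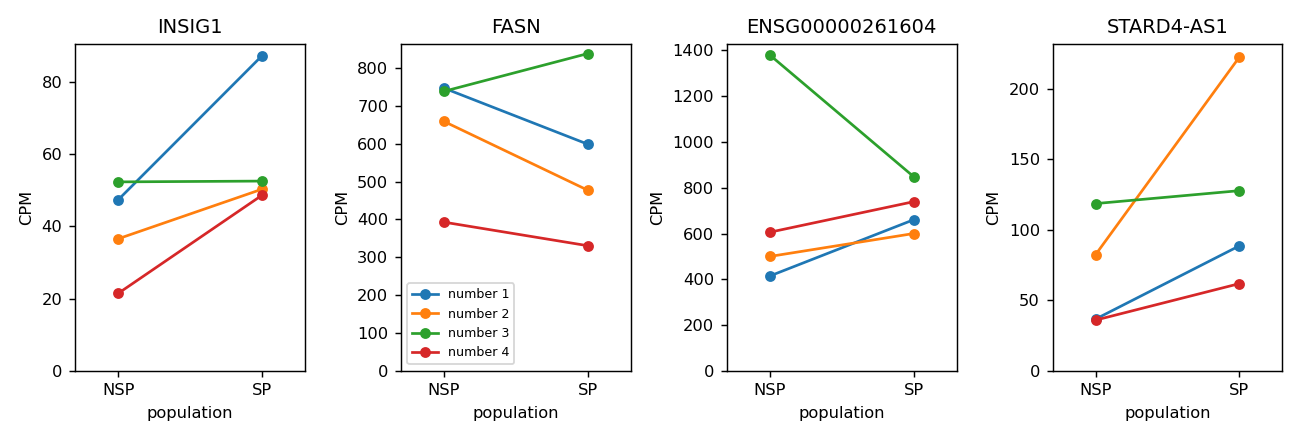
CPM (vertical axis) of INSIG1, FASN, the lncRNA ENSG00000261604 inside HMGCS1 and the antisense RNA STARD4-AS1 in NSP (left) and SP (right) libraries, with a coloured line joining libraries of the same number. INSIG1 and STARD4-AS1 are higher in SP at every number, INSIG1 by 52.5 against 52.3 CPM at number 3, whereas the lines of FASN and ENSG00000261604 run in both directions.

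Exons of 12 of the 27 genes lie across exons of genes on the other strand, and for several of them the other gene had far more counts. The lncRNA ENSG00000261604 (chromosome 5 of GRCh37, 43287703 to 43290941, plus strand) lies wholly, with 2497 bp of exon, within the exons of HMGCS1, and it had 44.1 times the counts of HMGCS1 over the 8 libraries (30.7 to 61.8 times in single libraries) and 117 times the counts per kb. Its CPM differed little between the groups (712 ± 108 in SP and 725 ± 444 in NSP libraries, log2 fold change -0.02, standard error 0.29). RUSC1-AS1, with 693 bp across exons of FDPS, had 31.7 times the FDPS counts and a log2 fold change of -0.21. IDI2-AS1, with 643 bp across IDI1, had 10.5 times the IDI1 counts and a log2 fold change of -0.27. With the counts of both strands summed, the log2 fold changes were -0.19 for FDPS, -0.22 for IDI1 and 0.00 for HMGCS1. Such a sum takes in every count of the overlapping gene. Only 19.7% of the exon length of RUSC1-AS1 and 18.01% of that of IDI2-AS1 lie in the exons of FDPS and IDI1. For ENSG00000261604 the whole exon length lies in those of HMGCS1. The overlapping genes hold most of the counts in these sums, so the sign of a sum is not that of the synthesis gene alone. How many of those counts came from the synthesis genes was not tested.

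STARD4-AS1 (chromosome 5 of GRCh37, 110846094 to 111075423, plus strand), an antisense RNA with 124 bp of exon across STARD4 and more across NREP, had 123, 332, 236 and 84 counts in SP and 69, 167, 186 and 52 counts in NSP libraries 1 to 4, against the 6 counts of STARD4. The SP library was above the NSP library at each number, while the groups overlapped (88.6, 223, 128 and 61.8 CPM against 36.7, 82.5, 119 and 36.0 CPM). It differed by 0.87 on the log2 scale (standard error 0.38, adjusted p = 0.260 in edgeR), and with the replicate block 0.89 (standard error 0.16, adjusted p = 4.94e-06), which was called. Since only 1.34% of its exon length meets STARD4, it is no measure of that gene. The other overlapping genes had counts nearer to those of their partner. TCP1, a chaperonin subunit with 454 bp across ACAT2, had 1.57 times its counts and a log2 fold change of -0.20. ENSG00000223901 had 1.55 times the counts of LSS, and SREBF2-AS1 0.588 times those of SREBF2. MMAB, a cobalamin enzyme beside MVK, had 0.476 times the counts of MVK, and RAI1 0.184 times those of SREBF1. For CYP51A1, AKAP9 and CYP51A1-AS1 overlap it, and for FDFT1 and SCAP the overlapping genes had 2 and 4 counts.

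**Figure D5:**
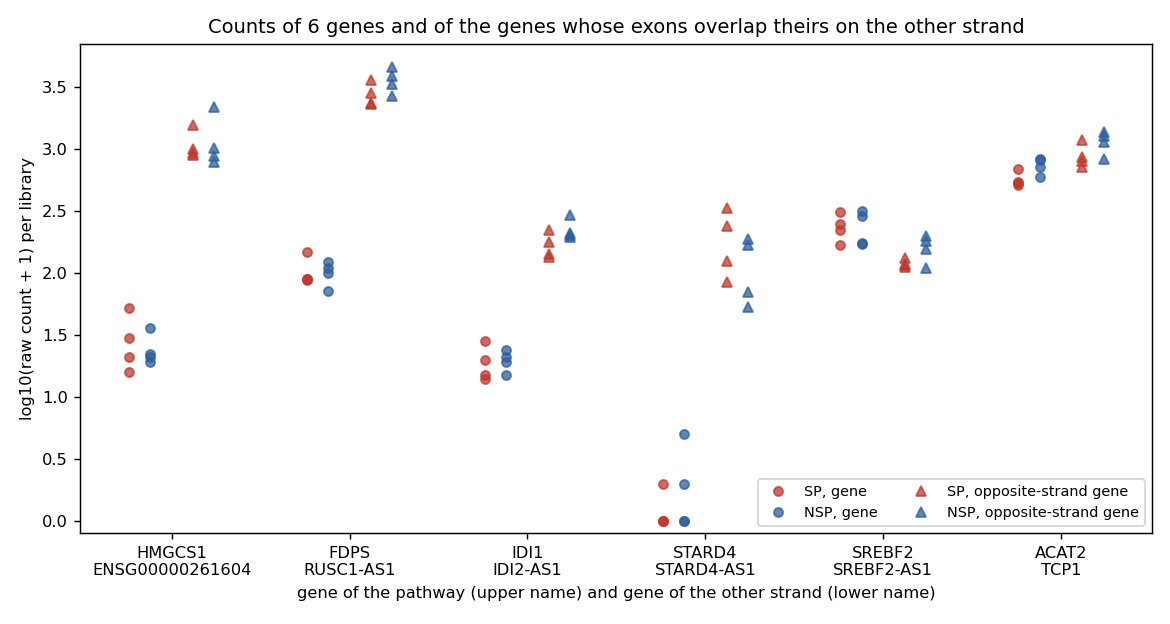
Raw counts per library, as log10(count + 1), of 6 genes (circles) and of the genes whose exons overlap theirs on the other strand (triangles), for SP (red) and NSP (blue) libraries. The triangles of ENSG00000261604 lie 30.7 to 61.8 times above the HMGCS1 counts of the same library, whereas TCP1 lies 1.37 to 1.79 times above ACAT2 and SREBF2-AS1 below SREBF2.

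Pseudogenes with similar sequence can share reads with their parent gene, and the counting of such reads is not given in the sources used here. The named pseudogenes of FDPS (8 genes) held 58 counts beside 805 for FDPS, and those of CYP51A1 (3 genes) held 26 beside 126. The single SCD pseudogene held 112 beside 3354.

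Of 73 further genes of the same pathways, 50 were tested, and 1 was called higher and 1 lower, beside 1.63% and 2.03% of all tested genes. Of the tested genes 7 were at an unadjusted p under 0.05, 4 of them higher and 3 lower, and their median log2 fold change was -0.02. AGPAT1, an acyltransferase of phosphatidic acid synthesis, had 130, 103, 119 and 105 CPM in SP and 80.3, 73.6, 72.1 and 58.8 CPM in NSP libraries 1 to 4. Its counts were called higher in SP cells (log2 fold change 0.68, standard error 0.16, adjusted p = 0.0258 in edgeR). LIPA, the lysosomal acid lipase that frees cholesterol from lipoprotein esters, had 13.0, 11.4, 13.5 and 35.3 CPM in SP and 31.4, 38.0, 48.5 and 51.9 CPM in NSP libraries 1 to 4. Its counts were called lower in SP cells (log2 fold change -1.22, standard error 0.31, adjusted p = 0.0401 in edgeR). Exons of both lie across exons on the other strand, and with both strands summed neither was called (0.23 for AGPAT1 and -0.21 for LIPA), in sums that take in every count of the overlapping genes. With single libraries left out, the log2 fold change of AGPAT1 stayed between 0.59 and 0.73, and its adjusted p passed 0.05 without SP library 1, NSP library 2 or NSP library 4. That of LIPA stayed between -1.74 and -1.06, and it was called only without SP library 4 or NSP library 1.

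The genes with the smallest p-values in each role otherwise did not pass the test. Among SREBP processing genes, MBTPS1, the site-1 protease that cleaves SREBP, had 48.0 ± 6.91 CPM in SP and 34.3 ± 4.59 CPM in NSP cells, groups that did not overlap (log2 fold change 0.48, adjusted p = 0.199 in edgeR), and RNF139, a sterol-linked ubiquitin ligase, had 0.60 (adjusted p = 0.416). In sterol transport, MYLIP, the ligase that degrades lipoprotein receptors, had 12.3 ± 1.22 and 6.92 ± 3.14 CPM without overlap (log2 fold change 0.84, adjusted p = 0.203 in edgeR). In fatty acid elongation, HACD2, a dehydratase, was at -0.50 (adjusted p = 0.271), and it was called with the replicate block at -0.51 (adjusted p = 0.0311). In the isoprenoid branches, IDI2, a paralog of IDI1, was at -0.38 (adjusted p = 0.323) and FAXDC2, a putative sterol oxidase, at 0.54 (adjusted p = 0.328). Exons of IDI2, FAXDC2 and RNF139 also lie across exons on the other strand.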

How the data were processed

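RNA-seq of SP and NSP cells of J82 (4 libraries each) was made with the KAPA mRNA HyperPrep Kit, whose libraries keep the strand of the RNA, and 50-bp single-end reads. Per the labels and the paper's methods, the authors aligned reads to hg19 with STAR and counted them on gencode version 19 genes with featureCounts of Subread; the deposited values are raw counts per gene, not normalized. The strand setting and the treatment of multiply mapped reads are not given in the sources used here. Symbols, exon lengths and opposite-strand overlaps were joined by unversioned identifier from a GENCODE annotation on GRCh37 (55538 of 57820 genes).

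Counts were tested with edgeR 4.0.16 (R 4.3.3; TMM, filterByExpr with a minimum count of 10 and total of 15, quasi-likelihood test) and adjusted by Benjamini-Hochberg over all 9309 genes tested. CPM used the TMM library sizes. The alternatives were DESeq2 1.42.0, limma 3.58.1 voom, other scalings and filters, the replicate block, leaving out libraries and, added after seeing the data, combinations of the block with others. Libraries of the same number deviated together (correlations 0.380, 0.203, 0.322 and 0.321, above those with other numbers), and pairs were therefore formed by number. Replicates differed by 5.70 to 13.2 in chi-square per degree of freedom, so none was a duplicate.

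The rule named all 28 genes, called related genes and the 2 with the smallest p per role, and genes whose exons overlap a listed gene's on the other strand. The genes and lists were chosen with earlier results of these data known. The knockout, ChIP-seq and accessibility data were not analysed here.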

Additional observations from a re-analysis of the deposited data

Results flagged for a closer look

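In 66 groups of 4 libraries (the CPM of the tested genes and of the overlapping genes on the other strand), 3 had a library far from the others by Dixon's ratio (the gap to the nearest library over the group's range, at its 95% critical value), and chance alone gives about 3. FDFT1, squalene synthase, was high in SP library 3, with 99.6 CPM against 66.3 to 69.9 CPM in the other SP libraries (ratio 0.891). INSIG1, the SCAP retention factor, was high in SP library 1, with 87.2 CPM against 48.6 to 52.5 CPM (ratio 0.898), and its log2 fold change was 0.35 without that library. SREBF2-AS1, the antisense RNA of SREBF2, was low in NSP library 4 (ratio 0.850).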

How the results depend on the processing

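At 1431823 to 2073526 counts per library, 6 of the 27 genes had too few counts for the test. These are counts assigned to genes, far fewer than the raw reads per sample that the paper reports. The reason for that gap was not tested. The number of genes called higher in SP was 0, and 1 without a filter on low counts (TM7SF2), 1 with the replicate block (INSIG1), 2 with the block and no filter, 2 with the block on both strands summed (INSIG1 and STARD4), and 1 with the block without the pair of libraries numbered 2, 3 or 4 (INSIG1 for 2 and 3, TM7SF2 for 4). No other alternative called any of them, and none was called lower, FASN coming nearest with the block and without the pair numbered 3 (-0.35, adjusted p = 0.0175 in edgeR, short of the 1.3-fold threshold). With each library left out in turn, 0 were called. The related genes called higher (1) numbered 0 with both strands summed, 0 to 1 without single libraries, and 2, 2, 4 and 2 with the block without the libraries numbered 1, 2, 3 and 4. Those called lower (1) numbered 2 with the block, 0 with both strands summed, 2 with both, 0 to 1 without single libraries, and 2 and 3 with the block without the libraries numbered 2 and 3.

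Signs turned in uncalled genes, whose log2 fold changes otherwise lay between -0.18 (FASN) and 0.20 (FDPS). A sum of both strands takes in every count of the overlapping genes, which outnumber those of IDI1, FDPS and LSS. The turned sign of the sum therefore follows the counts assigned to those genes, and from which strand these came was not tested. With both strands summed, without and with the block, the log2 fold changes were -0.22 and -0.21 for IDI1, -0.19 and -0.18 for FDPS and -0.17 and -0.17 for LSS, and EBP was at 0.00070 without it. LSS was at -0.0039 with DESeq2, -0.0034 with limma voom, -0.0044 without a filter and -0.00097 with the block and no filter. With upper-quartile scaling EBP was at 0.011 and SCAP at 0.0060. With the block and without the pair numbered 1, EBP was at 0.055, SCAP at 0.075 and SCD at -0.025, and without number 2 they were at 0.11, 0.035 and -0.016. Without number 3 LSS was at -0.036, and without number 4 IDI1 was at -0.030, FDFT1 at -0.0012, DHCR7 at 0.00063 and SCAP at 0.029. Without single libraries MVK ranged from -0.096 to 0.33, FDFT1 from -0.083 to 0.22, SQLE from -0.36 to 0.011, LSS from -0.049 to 0.090, EBP from -0.12 to 0.069, DHCR7 from -0.11 to 0.020, SCAP from -0.11 to 0.050, FASN from -0.44 to 0.0022, SCD from -0.064 to 0.17 and ACLY from -0.35 to 0.013, and INSIG1 from 0.35 to 0.74. With single libraries left out, no sign turned for CYP51A1 (-0.77 to -0.26), HMGCS1 (0.14 to 0.74), NSDHL (-0.55 without SP library 4 to -0.12 without SP library 2), ACAT2 (-0.29 to -0.094), PMVK (0.15 to 0.38), MVD (0.041 to 0.29), IDI1 (0.0027 to 0.25), FDPS (0.11 to 0.30), SREBF1 (0.077 to 0.24) or SREBF2 (0.10 to 0.28). The cause of the other moves was not tested.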
